A study of Oryza sativa with 6 samples.

Results

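Late embryogenesis abundant (LEA) proteins, dehydrins and a related membrane protein were described in the embryonic axes of rice seeds that had been aged at 2 temperatures. Members were chosen by name: a probe set had to be assigned to exactly 1 gene, and that gene's symbol or a synonym had to begin with LEA and a number, RAB16, RAB21, RAB25 or EMP1 (with or without the prefix Os), to which OsPM19L1 was added. This gave 10 probe sets of 8 genes, out of 57258 non-control probe sets, of which 22436 had a single gene (17905 genes in all). The name table holds 9 genes that match the name patterns, and 1 of them, LEA17 (also listed as LEA3-2), was not analysed here. RAB21 and OsPM19L1 had 2 probe sets each, called a and b here.

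Seeds of Oryza sativa cultivar Nipponbare were held for 3 days at 25 °C and 85% relative humidity, then at 40 °C or at 45 °C with the humidity unchanged, and finally for 3 days at 25 °C and 32% relative humidity. Both groups went through all 3 steps and differed in the temperature of the middle step alone, which lasted 14 days by the protocol fields and 15 days by the description field; the labels do not settle which. The labels tie 40 °C to lost vigour and 45 °C to lost capacity to germinate, and the comparison sets these states against each other. RNA of 3 samples per temperature was hybridised to the Affymetrix Rice Genome Array, and the 25 °C control group that the labels mention was not analysed here. No label states whether the 3 samples came from separate seed lots, so every p-value below refers to sample-to-sample variation that could be technical only.

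LEA proteins are small, mostly very hydrophilic proteins that accumulate late in seed maturation, when the embryo acquires tolerance to drying, and they are thought to protect proteins and membranes in the dry state. Dehydrins are one family among them and include the RAB16 proteins, named for their responsiveness to abscisic acid, the hormone of seed maturation and water stress. The transcripts are stored in the dry embryo and are normally lost after imbibition. In these samples a change in a stored transcript per cell and a change in the number of cells that still hold it cannot be told apart. Nor can a change in the rest of the RNA, since every array was labelled from 50 ng of RNA. Extracted RNA was 55, 53 and 68 µg at 40 °C and 42, 56 and 48 µg at 45 °C.

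All 10 probe sets lay near the top of the scale on every array. Their log2 values ran from 10.30 to 13.94, where the brightest non-control probe set on any array read 14.02. On each array at least 98.2% of all non-control probe sets were at or below each of them. All 10 passed the expression minimum (a mean log2 value of 4 over the 6 arrays), as did 22214 probe sets in all. These ranks describe signal on the array and not transcript abundance, because probes differ in binding.

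The arrays differed in ways that the temperature labels do not describe. Replicate 2 at 40 °C correlated at 0.927 and 0.935 with the other 40 °C arrays, which correlated at 0.982 with each other. The mean difference between the 3-prime and 5-prime probe sets of 5 rice control transcripts was 2.99 log2 units on that array and 1.66 to 2.03 on the other 5. The hybridisation controls, bacterial and phage transcripts that the array protocol adds in fixed and stepped amounts, also differed. The bioB controls (9 probe sets) averaged 7.93, 6.66 and 6.87 on the 40 °C arrays and 8.68, 8.76 and 8.49 on the 45 °C arrays, an exact two-sided permutation p of 0.1, the smallest that 3 against 3 can give. The gap between the group means narrowed with level, from 1.49 for bioB to 0.91 for bioC, 0.38 for bioD and 0.05 for cre, whose mean values were 14.28 and 14.34. RAB16D (10.30 to 10.98) lay between the group means of bioB and bioC, and the other members lay between the lowest bioC array (10.71) and cre. The part of this narrowing in the members' changes was not tested.

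At the level of the whole family, differences between the temperatures were small. Each probe set was tested with limma (45 °C against 40 °C, Benjamini-Hochberg adjustment over all 22214 tested probe sets). No member passed an adjusted p of 0.05, and neither did any other probe set (0%; the smallest adjusted p was 0.108). At an unadjusted p under 0.05 there were 2 members (19.2% of all tested probe sets, and 22.9% of the 1338 with a mean of at least 10, the range in which the members lie). Of these, 1 was lower at 45 °C (13.8% of all tested, 19.6% of those 1338) and 1 higher (5.37% and 3.29%). The lower one was RAB16D and the higher one was 1 of the 2 OsPM19L1 probe sets. The log2 change was below 0 in 8 members and above 0 in 2, with a median of -0.08, and among all tested probe sets 64.4% were below 0, with a median of -0.17. Among the 1338 brightest, 74.9% were below 0 and the median was -0.14. These shares depend on the expression minimum: with none, 41.6% of the non-control probe sets were below 0, with a median of 0.08. A centring of each array on its median turned the sign of 7 of the 8 negative members, leaving RAB16D.

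**Figure D1:**
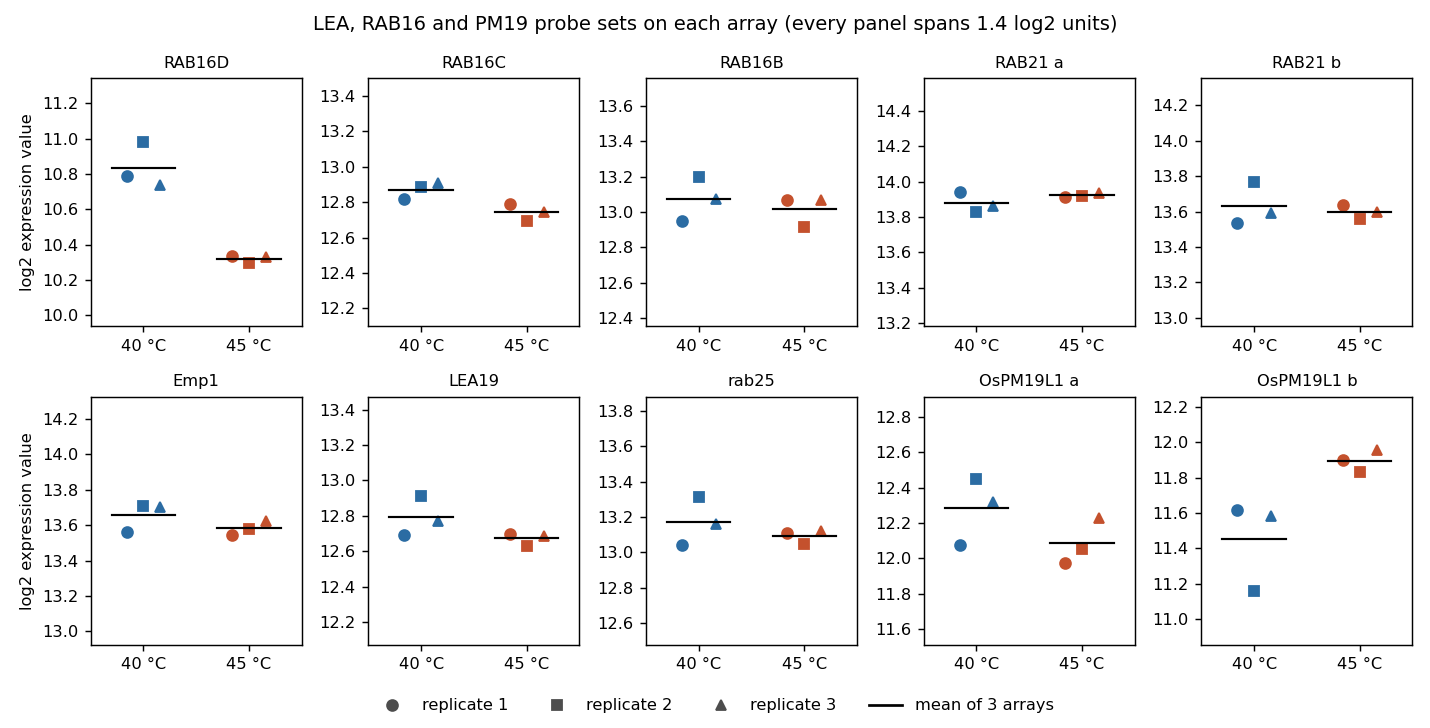
Log2 expression value of each member probe set (vertical axis, the same span in every panel) on the arrays of seeds aged at 40 °C (blue) and 45 °C (orange); symbols give the replicate and bars the mean of 3 arrays. The groups are separate for RAB16D, RAB16C and OsPM19L1 probe set b, and overlap in the other 7 panels.

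The RAB16 dehydrins were represented by 4 genes that follow each other as neighbouring protein-coding genes on 1 chromosome in the name table, in the order RAB16D, RAB16C, RAB16B and RAB21 (also known as RAB16A). Members of such a tandem family share sequence, and how far the probes of one gene also bind transcripts of the next cannot be read from these values.

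RAB16D (LOC4350451) showed the most negative change of all members. Its log2 values were 10.79, 10.98 and 10.74 at 40 °C and 10.33, 10.30 and 10.33 at 45 °C. All 45 °C arrays were below all 40 °C arrays, by 0.40 at the closest, and the 45 °C arrays were nearly level. The means were 10.83 ± 0.13 (SD, n = 3) and 10.32 ± 0.02 (SD, n = 3), and the log2 change was -0.52 ± 0.11 (SE), with a 95% confidence interval of -0.78 to -0.25. This corresponds to a 1.43-fold higher level at 40 °C. The limma p was 0.00218 and the adjusted p 0.172, so the difference did not pass over the whole array. By p it ranked 274th of the 22214 tested probe sets. Without replicate 2 at 40 °C the change was -0.44. Its sign was the same under the 4 other scalings tried, with changes from -0.26 (median centring) to -0.37 (cyclic loess). Of the 794 tested probe sets at its level (10 to 11), 4.66% showed a more negative change, and their median change was -0.17.

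RAB16C (LOC4350452) had values of 12.82, 12.88 and 12.91 at 40 °C and 12.79, 12.69 and 12.75 at 45 °C. The groups did not overlap, but the closest arrays were 0.03 apart. The log2 change of -0.13 (interval -0.30 to 0.04) had an adjusted p of 0.35 in limma. RAB16C and RAB16D were the 2 members whose groups were separate and lower at 45 °C, a pattern held by 17.8% of all tested probe sets and 25.8% of those with a mean of at least 10.

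RAB16B (LOC4350453) read 12.95, 13.20 and 13.07 at 40 °C and 13.07, 12.92 and 13.07 at 45 °C. The groups overlapped, and the log2 change was -0.05 (interval -0.26 to 0.15), or 0.01 without replicate 2 at 40 °C. RAB21 (LOC4350454) was measured by 2 probe sets. Probe set a read 13.94, 13.83 and 13.86 at 40 °C and 13.91, 13.92 and 13.94 at 45 °C. Probe set b, whose suffix (_s_at) marks probes shared with other transcripts, read 13.54, 13.77 and 13.59 at 40 °C and 13.64, 13.56 and 13.60 at 45 °C. The groups overlapped in both, with changes of 0.05 (interval -0.09 to 0.18) and -0.03 (interval -0.22 to 0.15). Replicate 2 at 40 °C was the lowest of all arrays in a and the highest in b, so the probe sets of this gene did not follow each other from array to array.

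The distance between RAB16D and its neighbours was also read within each array, where any shift common to the array cancels. RAB16D minus the mean of the 4 probe sets of RAB16B, RAB16C and RAB21 was -2.52, -2.44 and -2.62 on the 40 °C arrays and -3.02, -2.97 and -3.01 on the 45 °C arrays. The groups were separate and their means lay 0.47 apart. Against single probe sets the difference between the group means was smallest for RAB16C (-0.39). RAB16B (-0.46), RAB21 probe set b (-0.48) and probe set a (-0.56) followed. The groups were separate in all 4 cases. All 4 use the same RAB16D values, which were separate on their own, so they are not independent of each other. These differences are descriptions without a test, because RAB16D was singled out with its values known, and the neighbours lie at levels where all tested probe sets changed less (medians of -0.08 between 12 and 13 and -0.05 from 13 upward, against -0.17 between 10 and 11). What this dependence on level contributes to the gap was not tested.

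**Figure D2:**
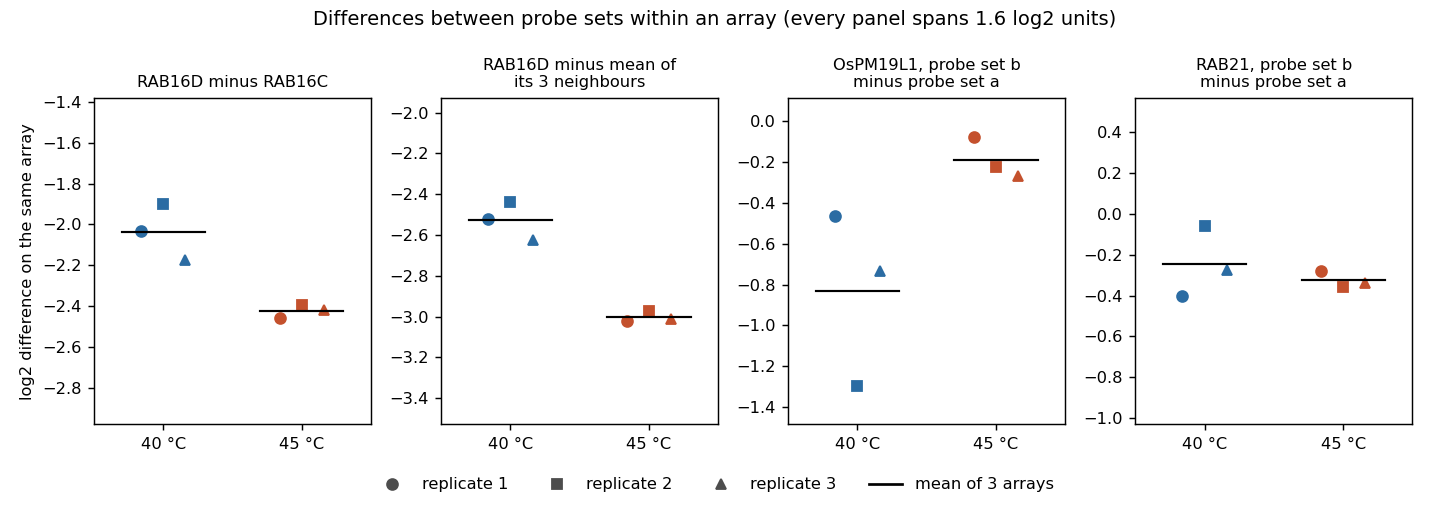
Log2 difference between 2 probe sets, or between RAB16D and the mean of the probe sets of its 3 neighbouring genes, on the same array (vertical axis, the same span in every panel), at 40 °C (blue) and 45 °C (orange), with the mean of 3 arrays as a bar. The groups are separate in the panels of RAB16D and OsPM19L1 and overlap in that of RAB21.

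Emp1 (LOC4338499, also listed as EM and Osem) encodes a group 1 LEA protein, the rice counterpart of the Em protein of wheat embryos. Its log2 values were 13.56, 13.71 and 13.70 at 40 °C and 13.54, 13.58 and 13.62 at 45 °C. The groups overlapped, and the change of -0.08 had an interval of -0.23 to 0.08 and an adjusted limma p of 0.545.

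LEA19 (also listed as OsLEA3-1) encodes a group 3 LEA protein known from drought responses of vegetative tissue. It read 12.69, 12.91 and 12.77 at 40 °C and 12.70, 12.63 and 12.69 at 45 °C. The lowest 40 °C array lay just under the highest 45 °C array, so the groups overlapped, and the change was -0.12 (interval -0.31 to 0.07), or -0.06 without replicate 2 at 40 °C, which was the highest array. Its probe set carries the same suffix for shared probes.

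The gene listed as rab25 (LOC4326935, also rDRP1) read 13.04, 13.31 and 13.16 at 40 °C and 13.11, 13.05 and 13.12 at 45 °C. The lowest and the highest array were both at 40 °C, and the change of -0.08 (interval -0.28 to 0.12) came to -0.01 without replicate 2 at 40 °C.

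Across the 7 probe sets other than those of RAB16D and OsPM19L1, changes ran from -0.13 to 0.05 and the confidence intervals together covered -0.31 to 0.18. Adjusted p-values were 0.35 to 0.821. These intervals all include 0, which does not show that the levels were equal.

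OsPM19L1 (LOC4338635, also listed as PM1) belongs to the PM19 family of plasma membrane proteins, named after a wheat protein that accumulates with abscisic acid. Its 2 probe sets gave opposite signs. Probe set b read 11.62, 11.16 and 11.58 at 40 °C and 11.90, 11.83 and 11.96 at 45 °C. All 45 °C arrays were above all 40 °C arrays, by 0.21 at the closest, which 10.8% of all tested probe sets and 4.56% of those with a mean of at least 10 also showed. The means were 11.45 ± 0.26 (SD, n = 3) and 11.89 ± 0.06 (SD, n = 3), a log2 change of 0.44 ± 0.14 (SE) with an interval of 0.12 to 0.76. The limma p was 0.0128 and the adjusted p 0.193. Of the 366 tested probe sets at its level (11 to 12), 4.92% showed a more positive change.

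Probe set a read 12.08, 12.45 and 12.32 at 40 °C and 11.97, 12.05 and 12.23 at 45 °C. The groups overlapped, with means of 12.28 ± 0.19 (SD, n = 3) and 12.08 ± 0.13 (SD, n = 3), a log2 change of -0.20 (interval -0.48 to 0.08) and an adjusted limma p of 0.385. The difference between both probe sets within an array, b minus a, was -0.46, -1.30 and -0.73 at 40 °C and -0.08, -0.22 and -0.27 at 45 °C, so it was wider on every 40 °C array. Averaged over both probe sets the gene had a log2 change of 0.12. Under the deposited scaling the direction for this gene therefore rests on which probe set is read.

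Replicate 2 at 40 °C held the extreme value in both OsPM19L1 probe sets, the lowest of 6 arrays in b and the highest in a. It was also the array with the widest 3-prime to 5-prime gap in the rice controls (2.99) and the lowest bioB signal (6.66). Without it the change of b was 0.30 and that of a was -0.11, so the signs stayed opposite. After median centring of all arrays both changes were above 0 (0.70 for b and 0.058 for a). The part of RNA quality or of hybridisation in the disagreement was not tested.

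**Figure D3:**
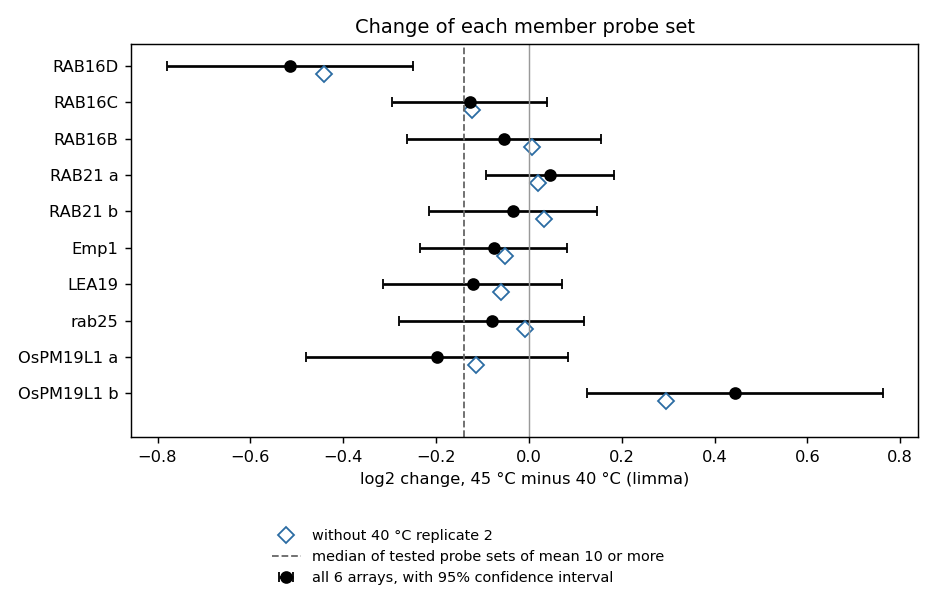
Log2 change of each member probe set, 45 °C minus 40 °C, from limma (horizontal axis); points and bars give the change and its 95% confidence interval over 6 arrays, open diamonds the change without replicate 2 at 40 °C, and the dashed line the median of tested probe sets with a mean of at least 10 (-0.14). The intervals of RAB16D (-0.78 to -0.25) and of OsPM19L1 probe set b (0.12 to 0.76) lie on one side of 0, and the other 8 include 0.

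Replicate 2 at 40 °C was the highest array in 7 of the 10 members and the lowest in 2. Among tested probe sets with a mean of at least 10 it was the highest in 38.5% and the lowest in 19.1%. The spread between replicates was wider at 40 °C than at 45 °C in 9 of the 10 members, with a median SD of 0.12 against 0.04. For all tested probe sets at that level the median SD was 0.17 and 0.13.

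The 3 probe sets of RAB16D and OsPM19L1 had the changes furthest from 0 among the 10 (-0.52, 0.44 and -0.20). Over the whole array the spread of changes narrowed with signal: the SD of the changes was 0.28 for means between 10 and 11, 0.27 between 11 and 12, 0.25 between 12 and 13 and 0.13 from 13 upward.

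**Figure D4:**
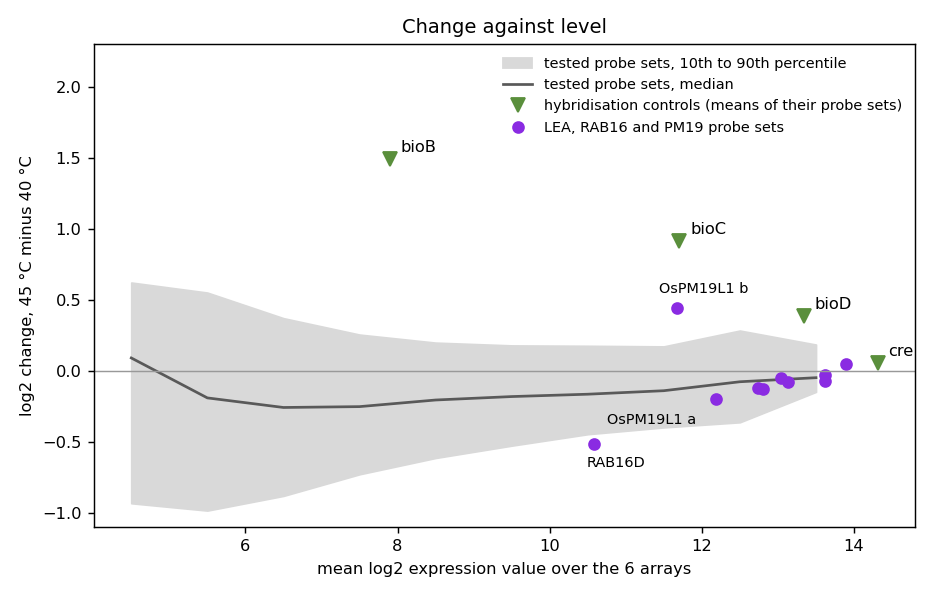
Log2 change, 45 °C minus 40 °C (vertical axis), against the mean log2 value over 6 arrays (horizontal axis); the grey band runs from the lower to the upper decile of tested probe sets by level, the line their median, purple points the members and green triangles the hybridisation controls. RAB16D lies below the band and OsPM19L1 probe set b above it, and the difference of the controls falls from 1.49 for bioB to 0.05 for cre.

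Abscisic acid is known to act on genes of this kind through its receptors, type 2C protein phosphatases, SAPK kinases and transcription factors of the bZIP and B3 families. A list of such genes by name held 89 probe sets of 72 genes, of which 72 probe sets of 66 genes were tested; 55 of the 72 genes were protein phosphatases, since the name pattern takes in the whole PP2C family. None passed the adjusted threshold. At an unadjusted p under 0.05, 17 were lower (23.6% of the list, against 13.8% of all tested) and 0 higher (5.37% of all tested), with a median change of -0.26. Without replicate 2 at 40 °C these counts were 11 and 0 of the 72, where 14.1% of all tested probe sets were lower and 3.57% higher. The share of the list that was lower was then close to that of all tested probe sets. First by p on the lower side was the phosphatase gene OsPP2C54, with means of 5.10 ± 0.31 at 40 °C and 3.86 ± 0.10 at 45 °C (SD, n = 3 each). Its change of -1.24 had an adjusted p of 0.163 in limma, and the 45 °C mean lay under the minimum of 4. First on the higher side was OsPP2C67, with means of 7.88 ± 0.10 and 8.35 ± 0.29 (SD, n = 3 each) and a change of 0.47, at an adjusted p of 0.263 in limma.

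Of the transcription factors known to act on the Emp1 promoter in rice, VP1 and TRAB1 are named here, after their values were seen. VP1, the B3 factor of seed maturation, read 9.15, 9.18 and 8.82 at 40 °C and 8.82, 8.90 and 8.95 at 45 °C. TRAB1, a bZIP factor that binds abscisic acid response elements, read 8.89, 9.68 and 9.06 at 40 °C and 9.24, 8.94 and 8.93 at 45 °C. The groups overlapped for both, with changes of -0.16 ± 0.16 (SE) and -0.17 ± 0.23 (SE).

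A second list was chosen for other products of the drying embryo. It held chiefly small heat shock proteins, together with seed vacuolar aquaporins of the TIP3 type and a gene listed as RFS. As the groups differ in temperature, the list is no reading of drying apart from heat. Of its 22 probe sets (16 genes) 19 were tested (15 genes), and none passed the adjusted threshold. At an unadjusted p under 0.05, 8 were lower (42.1% of the list, against 13.8% of all tested) and 0 higher (against 5.37%), and the median change was -0.29. Without replicate 2 at 40 °C the counts were 10 and 0, against the 14.1% and 3.57% given above. Over all 6 arrays the share lower was 19.6% among tested probe sets with a mean of at least 10. The unadjusted counts of both lists were made under the deposited scaling alone. There 64.4% of all tested probe sets had a change below 0, against 42.4% after median centring. How far the list shares depend on the scaling was not tested. First by p on the lower side was HSP18.6, with means of 11.57 ± 0.12 and 10.90 ± 0.09 (SD, n = 3 each). Its change of -0.67 had an adjusted p of 0.153 in limma, and its other probe set had a change of -0.17. First on the higher side was an HSP18.0 probe set, with a change of 0.13 ± 0.23 (SE), while the other probe sets of that gene had changes of 0.00 and -0.46.

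A dehydrin outside the naming rule, Dhn1 (also listed as LIP9), was looked up after the member values were known. The probe set looked up read 12.42, 12.82 and 12.55 at 40 °C and 12.36, 12.26 and 12.28 at 45 °C. The groups were separate and lower at 45 °C, as in 17.8% of all tested probe sets and 25.8% of those with a mean of at least 10. The change of -0.29 ± 0.11 (SE) had an adjusted limma p of 0.233.

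The transcripts whose pattern over the 6 arrays was most like that of RAB16D, among 2041 tested probe sets whose gene has a name beyond its number, were those of OsTIP2;2 (a vacuolar aquaporin, Pearson r = 0.997), OsUAM3 (r = 0.997), OsPP2C54 (r = 0.991), NCBP (a cap-binding protein, r = 0.991) and OsYchF1 (r = 0.990). For OsPM19L1 probe set a they were TCTP (r = 0.992), IRL3 (r = 0.982), GRXS4 (a glutaredoxin, r = 0.977), CYC07 (ribosomal protein S3a, r = 0.976) and IAA1 (an auxin response repressor, r = 0.975). These values are descriptions over 6 arrays that share the temperature groups and replicate 2 at 40 °C, and such high values are the top of a long ranking.

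The tissue was labelled as seed, and the protocol names the embryonic axis. All 4 embryo marker genes on the array, 1 of them Emp1, had a mean of at least 4. Their summed level was 13.65 to 13.80 at 40 °C and 13.62 to 13.70 at 45 °C on the log2 scale. Emp1 alone read 13.56 to 13.71 at 40 °C and 13.54 to 13.62 at 45 °C. Most of the embryo sum was therefore Emp1, and it is no reading of tissue apart from the members. Endosperm markers were present as well, with 10 of 14 genes at a mean of at least 4 and a summed level of 12.53 to 13.22 at 40 °C and 12.56 to 13.45 at 45 °C, lowest at 40 °C on replicate 2. The same count was 4 of 5 for aleurone markers, at 9.66 to 10.08 and 9.65 to 10.36, and 3 of 6 for green tissue, at 7.41 to 7.50 and 7.11 to 7.72. The ranges of the groups overlapped for all 4 tissues, and their part in the member changes was not tested.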

How the data were processed

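The deposited table gives log2 expression values per probe set, made by the authors with GCRMA per the submitters' processing notes, a method that corrects probe background and summarises probes; its version and settings are not given in the sources used here. Values ran from 0.563 to 14.6. Genes came from the platform annotation (22436 of 57258 non-control probe sets with 1 gene, 95 with several, 34727 with none listed), and names from the RefSeq table of assembly ASM3414082v1, in which all 17905 genes were found.

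Non-control probe sets with a mean of at least 4 (22214) were fitted with limma 3.58.1 in R 4.3.3 (lmFit, eBayes with trend), contrasting the temperatures (two-sided p, Benjamini-Hochberg adjusted over all of them), and the step was tested on simulated data. The number of arrays, 3 per group, limits the precision, and no detection calls were used. Alternatives were another or no expression minimum, 4 scalings, no trend, array weights, the replicate number as a block and leaving out each array. Marker levels sum the brightest probe set of each gene. Members were named by rule, list genes by smallest p in each direction, and like patterns by Pearson r. Members and lists were chosen with earlier results of these data known. Arrays shared at most 0.875% of their values exactly.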

Additional observations from a re-analysis of the deposited data

How the results depend on the processing

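No member passed an adjusted p of 0.05 under any alternative run. Over all probe sets the count of 0 was 193 with array quality weights. It was 0 to 69 when leaving out 1 array (69 without replicate 2 at 40 °C). For the second list, chiefly small heat shock proteins, the count was 3 with array weights. RAB16D had an adjusted p of 0.0625 to 0.359 over the alternatives and a change of -0.56 to -0.44 when leaving out 1 array; OsPM19L1 probe set b had 0.104 to 0.359 and 0.30 to 0.53. Members at an unadjusted p under 0.05 were 7 after median centring (19.5% of all tested probe sets) and 1 without the trend (19.4%), against 2. Of those 7, 6 were higher at 45 °C, as were 14.7% of all tested and 17.1% of those with a mean of at least 10. Members with a change below 0 were 1 after median centring and 2 after centring on probe sets with a mean of at least 10, a scaling chosen after seeing the data, against 8, and the median change was 0.18 and 0.078. Under median centring the changes turned positive for Emp1 (0.18), LEA19 (0.13), OsPM19L1 probe set a (0.058), RAB16B (0.20), RAB16C (0.13), RAB21 probe set b (0.22) and rab25 (0.18). Under the other centring they were 0.080, 0.035 and 0.10 for Emp1, LEA19 and RAB16B, and 0.028, 0.12 and 0.076 for RAB16C, RAB21 probe set b and rab25. RAB21 probe set b also read 0.013 after quantile normalization and 0.0080 with array weights. Leaving out 1 array gave -0.082 to 0.033 for it and -0.12 to 0.0073 for RAB16B, both above 0 only without replicate 2 at 40 °C. Averaged over the probe sets of a gene, OsPM19L1 had 0.12 and RAB21 0.0055, which turns the sign of OsPM19L1 a and of RAB21 b. The median change of all tested probe sets was 0.09 after median centring and -0.01 after the other centring, against -0.17. The turns under these centrings therefore follow from the shift applied. The other turns came from settings without a centring. Among these, quantile normalization also moved the median change of all tested probe sets, to 0.012. With the replicate number as a block (replicate block) 0 probe sets and 0 members passed, and RAB16D had an adjusted limma p of 0.283. The deviations of same-numbered arrays from their group means correlated at 0.03, -0.14 and -0.04. Deviations from the mean of so few arrays are tied to each other. These correlations therefore cannot settle whether the numbers pair the samples, and no label states it.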
